A study of Ovis aries with 16 samples.

Results

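TTR, AQP1, CLDN1 and CLDN3 were followed array by array in the hippocampus of 16 fetal sheep. They are 4 of the 893 gene names on an ovine microarray and are read by 8 of its 15008 probes, with 1 probe for TTR, 2 each for AQP1 and CLDN1 and 3 for CLDN3. The genes were selected on measured values of these arrays, as genes of the choroid plexus that might show how much of that tissue was carried over with the hippocampus, so their levels, correlations and differences between groups are given as a description. All 8 probes cleared the filter on dim probes, a signal well above background on 3 or more of the 16 arrays, and so were among the 12543 probes tested.

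The fetuses were chronically catheterized and studied late in gestation, each with 1 one-color array of RNA from the whole hippocampus. In the normoxia control group (NC, n = 3) the ewe breathed normal air and the fetus received no ketamine. In normoxia plus ketamine (NK, n = 4) the fetus was given 3 mg/kg of ketamine, an anesthetic that blocks NMDA receptors, by vein beforehand. Hypoxia control (HC, n = 5) and hypoxia plus ketamine (HK, n = 4) were the same without and with the drug, but the oxygen breathed by the ewe was lowered for 30 min. Tissue was taken after 23.5 h of recovery in all 4 groups, whose strain is not given in the sources used here. Most fetuses were twins and whole pregnancies were assigned to normoxia or hypoxia, and the labels do not tie arrays to pregnancies, so p-values and errors treat fetuses as independent.

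The choroid plexus is a vascular fold covered by a single sheet of epithelium. It hangs in the cerebral ventricles, including the horn of the lateral ventricle that runs along the hippocampus, and it makes cerebrospinal fluid. Its epithelium is the main site in the brain at which transthyretin (TTR) is made, a secreted carrier of thyroxine and of retinol-binding protein that the liver also produces. AQP1 is a water channel of the fluid-facing membrane of these cells. CLDN1 and CLDN3 are claudins, which seal the tight junctions between epithelial cells and so form the barrier between blood and cerebrospinal fluid.

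The probes of 1 gene are not independent readings of it, as their 60-base sequences show. Those of AQP1 and CLDN3 are printed because the agreement or disagreement of their probes bears on the results. Capitals mark the run that a probe shares with the other probe of its gene.
AQP1 probe 1: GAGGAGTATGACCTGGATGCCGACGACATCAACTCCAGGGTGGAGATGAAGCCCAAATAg
AQP1 probe 2: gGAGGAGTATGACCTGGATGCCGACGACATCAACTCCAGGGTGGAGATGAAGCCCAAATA
CLDN3 probe 1: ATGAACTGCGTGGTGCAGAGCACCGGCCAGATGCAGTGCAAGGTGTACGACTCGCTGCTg
CLDN3 probe 2: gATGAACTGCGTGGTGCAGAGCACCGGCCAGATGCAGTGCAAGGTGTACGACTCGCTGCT
CLDN3 probe 3: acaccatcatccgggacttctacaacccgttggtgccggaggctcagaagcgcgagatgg
Both AQP1 probes were designed on the same transcript and share 59 of 60 bases, and the first 2 CLDN3 probes also share 59. CLDN3 probe 3 starts 268 bases downstream of CLDN3 probe 1 in the same transcript sequence and has no run in common with it. The 2 CLDN1 probes start 20 bases apart on an expressed sequence tag and share 40 bases. TTR has a single probe, which starts at base 468 of its transcript record. The array annotation leaves the genome position of these probes unmapped.

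Levels are given as log2 of the processed signal minus the 75th percentile of the same array, so that 0 is the signal of a fairly bright probe and a step of 1 is a doubling. An array had 76.7% to 82.6% of its spots well above background. The lowest signals well above background lay between -7.36 and -6.43 on this scale, and levels near or below that are close to the limit of the measurement. Levels of different probes are not set against each other as amounts, because probes differ in how strongly they bind.

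TTR was abundant on some arrays and modest on others. In NC its level was 0.18, 6.41 and 1.97 on NC1, NC2 and NC3. In NK it was -0.55 on NK1, 6.14 on NK2, 0.15 on NK3 and 2.35 on NK4. One array of 3 in NC and 1 of 4 in NK thus lay far above the rest of its group. The HC arrays read -1.43, 5.37, 2.89, 1.74 and 6.28 from HC1 to HC5, and the HK arrays read 3.07, 5.65, 0.16 and 5.13 from HK1 to HK4. High and low fetuses were found in each of the 4 groups, and the groups overlapped throughout.

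**Figure D1:**
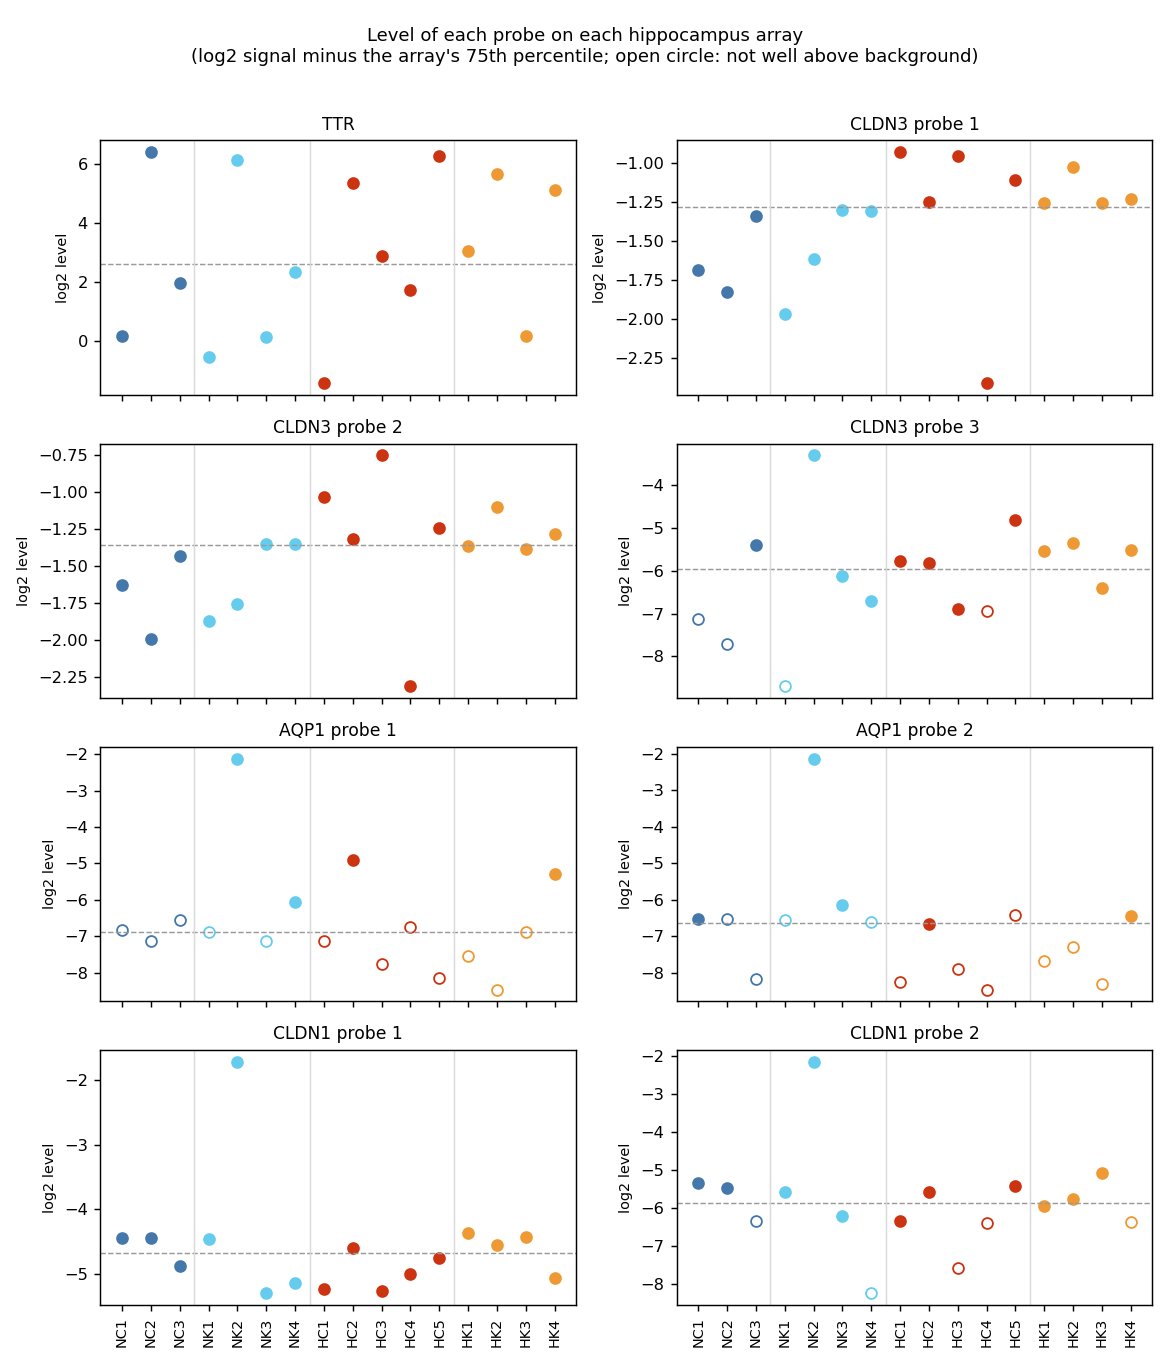
Level of each of the 8 probes (log2 signal minus the 75th percentile of the array) on the 16 arrays, colored by group, with open circles where the probe was not well above background and a dashed line at the median. TTR is high on 6 arrays spread over all 4 groups, whereas both AQP1 probes, both CLDN1 probes and CLDN3 probe 3 are highest on NK2.

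The spread of TTR was extreme. From the lowest array, HC1, at an intensity of 440 to the highest, NC2, at 87250, the scaled level spanned 7.84 log2 units, a 229.5-fold range. The spot was saturated on NC2, HC5 and NK2, so the true range may be wider. Its SD over the 16 arrays was 2.69, against a median of 0.26 over all probes tested, and only 10 of 12543 probes had a larger one. The sorted levels broke between 3.07 on HK1 and 5.13 on HK4, a gap of 2.06, which left 6 arrays above it (NC2, NK2, HC2, HC5, HK2 and HK4) and 10 below. In bulk tissue, fewer cells of a type and less RNA per cell cannot be told apart.

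The place of the array on its slide moved with TTR. The 16 arrays lay on 2 slides, each with 2 rows of 4 arrays, and every group was spread over both slides and both rows. The spread was uneven. NC2 was the only NC array in row 2, which also held HC2, HC4, HC5, NK2, NK4, HK2 and HK4. On the 8 arrays of row 1, TTR ranged from -1.43 to 3.07 with a median of 0.17. On the 8 arrays of row 2, it ranged from 1.74 to 6.41 with a median of 5.51, so the rows overlapped only between 1.74 and 3.07. The 4 arrays of row 2 on slide 1 were the replicate 2 arrays of the 4 groups and read 5.37 to 6.41, within 1.04 of each other. The 4 arrays of row 1 on that slide carried the replicate 1 samples and read -1.43 to 3.07. Since each replicate number lay in 1 row, the place on the slide and whatever the fetuses of one number shared cannot be told apart. CLDN3 probe 1 had nearly the same median in both rows, -1.28 and -1.28, and CLDN1 probe 1 read -4.67 in row 1 and -4.68 in row 2. The dim probes had higher medians in row 2, as TTR did. They read -7.77 in row 1 and -6.56 in row 2 for AQP1 probe 2, -7.01 and -6.40 for AQP1 probe 1, -6.26 and -5.66 for CLDN3 probe 3, and -6.08 and -5.68 for CLDN1 probe 2.

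**Figure D2:**
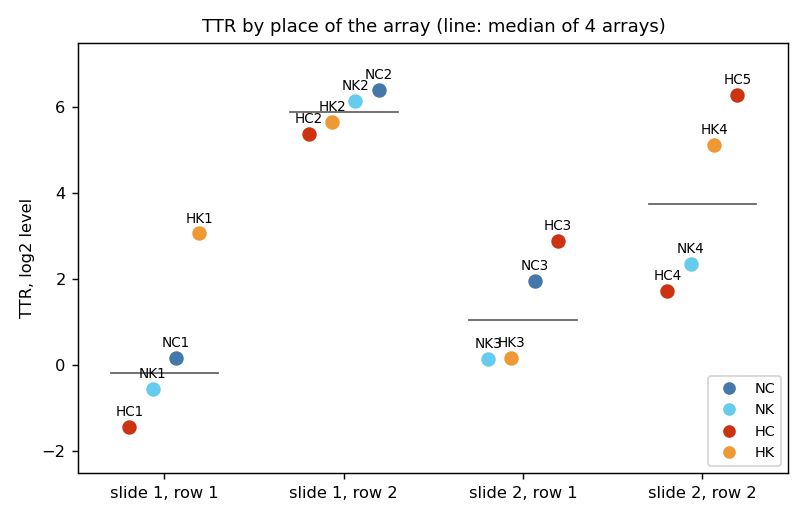
TTR level (log2 signal minus the 75th percentile of the array) of the 16 arrays by slide and array row, colored by group, with a line at the median of the 4 arrays in each place. The 4 arrays of slide 1, row 2, one from each group, lie between 5.37 and 6.41, and all 6 arrays above 5 are in row 2.

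AQP1 was near the limit of detection on nearly every array. Probe 1 was well above background on 4 of 16 arrays (NK2, NK4, HC2 and HK4) and probe 2 on 5 (NC1, NK2, NK3, HC2 and HK4). On NK2 the 2 probes read -2.12 and -2.14. Elsewhere probe 1 ran from -8.47 to -4.90 and probe 2 from -8.46 to -6.15. NK2 therefore stood 2.78 log2 units above the next array by probe 1 and 4.01 by probe 2, and 27.4-fold and 23.2-fold above the median of the other 15 arrays. These folds rest on medians at the detection limit and are approximate. With NK2 left out, the 2 probes, which differ by a single base of offset, correlated at only r = 0.19 over 15 arrays, against 0.73 with it, so among the other arrays the 2 probes barely followed each other.

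NC1, NC2 and NC3 read -6.84, -7.13 and -6.55 by AQP1 probe 1, none of them well above background. NK1, NK3 and NK4 read -6.90, -7.14 and -6.07. HC1 to HC5 read -7.12, -4.90, -7.76, -6.74 and -8.16, and HK1 to HK4 read -7.55, -8.47, -6.88 and -5.29. Apart from NK2, only HC2 and HK4 rose clearly over the floor by probe 1, and probe 2 did not place them so high, at -6.67 and -6.45. NK2, HC2 and HK4 were the arrays on which both AQP1 probes were well above background, and all 3 were among the 6 arrays with high TTR, whereas on the other 3 of those, NC2, HC5 and HK2, neither probe was. AQP4, the water channel of astrocytes, read 5.60 to 6.22 and was lowest on NK2, but its signal was close to that at which TTR saturated, where differences may be compressed.

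CLDN1 gave the same picture from a higher base. Probe 1 was well above background on all 16 arrays and probe 2 on 11. On NK2 they read -1.71 and -2.15, whereas the other 15 arrays lay between -5.30 and -4.37 by probe 1 and between -8.25 and -5.07 by probe 2. NK2 exceeded the median of the others 8.21-fold by probe 1 and 13.9-fold by probe 2. Without NK2 the SD of probe 1 dropped from 0.84 to 0.35 log2 units. Its NC arrays then lay at -4.45, -4.45 and -4.88, the HC arrays between -5.26 and -4.60, the HK arrays between -5.07 and -4.37 and the other 3 NK arrays at -4.45, -5.30 and -5.14, all overlapping. Unlike the AQP1 probes, the CLDN1 probes still followed each other without NK2 (r = 0.74, n = 15).

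CLDN3 did not share the rise on NK2 in its 2 bright probes. NC1 to NC3 read -1.69, -1.82 and -1.34 by probe 1, and NK1 to NK4 read -1.97, -1.61, -1.30 and -1.31. HC1 to HC5 read -0.93, -1.25, -0.95, -2.41 and -1.11, and HK1 to HK4 read -1.26, -1.03, -1.26 and -1.23. NK2 was thus 0.35 below the median of the other arrays, and 4 of 5 HC arrays lay above every NC array while HC4 lay below them all. Probe 2 followed probe 1 at r = 0.97 and read -1.76 on NK2.

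CLDN3 probe 3, from another stretch of the transcript, behaved differently. It was on average 4.73 log2 units dimmer than probe 1 and was well above background on 12 arrays. Its highest level was on NK2, at -3.29, with HC5 next at -4.80 and the lowest at -8.71 on NK1. Over the 16 arrays it correlated with probe 1 at r = 0.44, at 0.66 without NK2, and at 0.18 without HC4 and NK1, the 2 arrays farthest from the median of probe 1. HC3 was second highest by probe 1, at -0.95, and read -6.90 by probe 3. Which of them reports CLDN3 transcripts in the sheep hippocampus was not tested.

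Taking probe 1 of each gene, TTR was only loosely related to the other 3 genes over the 16 arrays. There are 23 pairs of probes from different genes, and the correlations of these are given without p-values, since the genes were chosen for this pattern. The points share their array scaling, and single arrays carry much weight among 16. TTR correlated with AQP1 probe 1 at r = 0.25 (rho = -0.04), with CLDN1 probe 1 at 0.38 (rho = 0.31) and with CLDN3 probe 1 at 0.10 (rho = 0.11). Without HC1 and NC2, the arrays farthest from the median of TTR, these became 0.29, 0.34 and 0.42 (rho = 0.04, 0.16 and 0.55). The TTR spot was saturated on NC2, HC5 and NK2, so these 3 have no order among themselves. On NC2, AQP1 was not well above background by either probe and CLDN1 probe 1 read -4.45, close to its median of -4.68. HC5 had AQP1 probe 1 at -8.16.

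**Figure D3:**
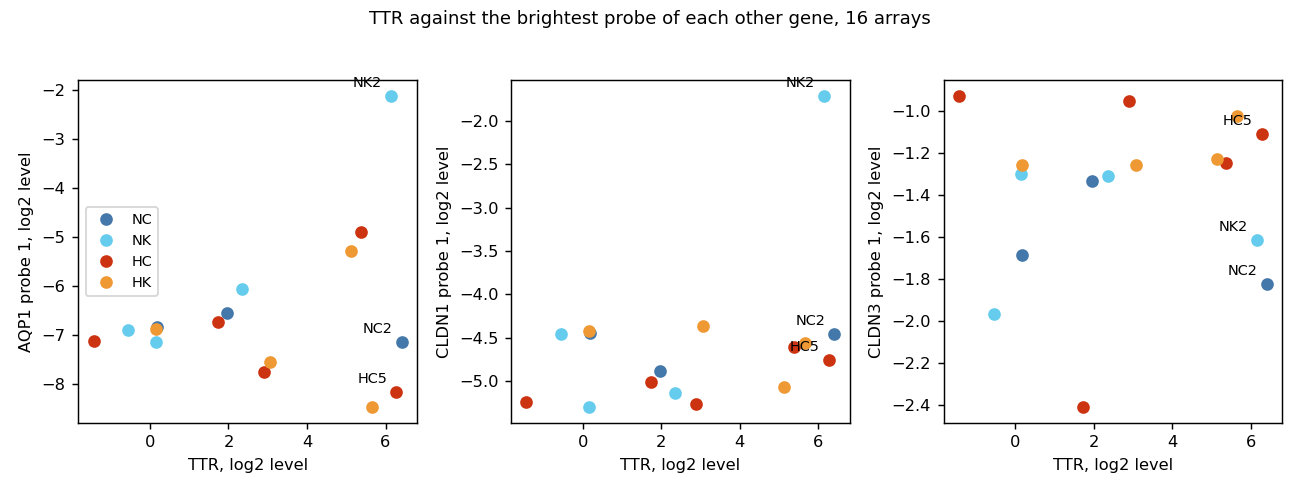
Level of AQP1, CLDN1 and CLDN3 (probe 1 of each, log2 signal minus the 75th percentile of the array) against TTR on the 16 arrays, colored by group. NK2 is the single array high in TTR, AQP1 and CLDN1, whereas NC2 and HC5, where TTR is saturated as on NK2, have AQP1 and CLDN1 near the level of the other arrays.

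AQP1 and CLDN1 correlated closely, and that correlation rested on 1 array. Probe 1 of both gave r = 0.70, which became -0.12 without NK2, and the rank correlation was 0.12 even with it. For AQP1 probe 2 with CLDN1 probe 1 the change was from 0.79 to 0.09. Leaving out the 2 arrays farthest from the median of AQP1 probe 1, NK2 and HC2, gave -0.26. On slide 1, which holds NK2, AQP1 and CLDN1 correlated at 0.83 over 8 arrays, and on slide 2 at -0.11. As deviations from the group means the correlation was 0.67.

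Within slides and groups the picture for TTR was uneven. With CLDN1 probe 1 its correlation was 0.47 on slide 1 and -0.01 on slide 2, and with AQP1 probe 1 it was 0.33 and -0.06. Among the 6 arrays with high TTR, its correlation with AQP1 probe 1 was -0.15, and among the other 10 it was -0.10. Its closest relations were with the dim probes. With AQP1 probe 2 it correlated at 0.45 over all arrays, 0.45 on slide 1, 0.42 on slide 2 and 0.33 without NK2, and at 0.72 as deviations from the group means. Of these 16 readings of AQP1 probe 2, 11 were not well above background. With CLDN3 probe 3 the correlation was 0.47, or 0.36 without NK2 and 0.77 once HC1 and NC2, the extremes of TTR, were left out. CLDN3 probe 1 ran weakly against AQP1 (r = -0.22) and CLDN1 (r = -0.23).

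**Figure D4:**
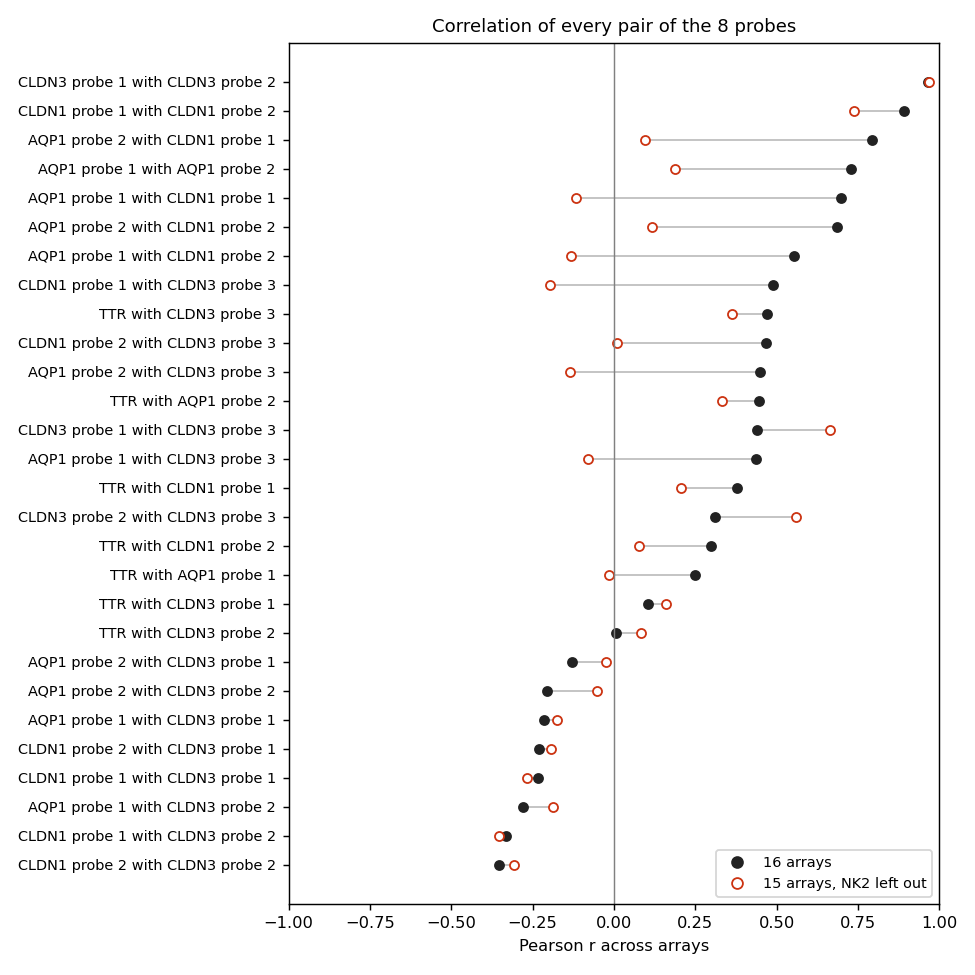
Pearson correlation of each of the 28 pairs of probes over all 16 arrays (filled) and over the 15 arrays without NK2 (open). Every pair of an AQP1 probe with a CLDN1 probe falls from between 0.55 and 0.79 to between -0.13 and 0.12 when NK2 is left out, and the first 2 CLDN3 probes stay at 0.97.

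NK2 was unusual well beyond the 4 genes. For 35 of the probes tested, NK2 was the highest array by more than 2 log2 units, against 0 to 9 probes for each of the other 15 arrays. Of these 35 probes, 12 carry a gene name, and they are the 2 probes of AQP1, the 2 of CLDN1 and probes of APOA1, IGF2, IGFBP2, LEPR and MMP2. APOA1, an apolipoprotein, is named here because its value was seen, and read 4.92 on NK2 against at most 2.22 elsewhere. Over all probes NK2 had a median correlation of 0.977 with the other arrays, within their range of 0.973 to 0.983.

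Other genes of the choroid plexus were partly high on NK2. Of 45 listed genes besides the members, 6 were on the array and 5 were tested. IGFBP2, a carrier of insulin-like growth factors, read 5.98 on NK2 and 1.72 to 3.52 elsewhere. IGF2, a growth factor made by the choroid plexus and the meninges, read 4.30 on NK2 and at most 1.99 elsewhere. ATP7B, a copper transporter, was highest there too, 0.76 above the median of the others. TF (transferrin) and CP (ceruloplasmin), the carriers of iron and copper in plasma, were not highest on NK2, where they were 0.11 and 0.62 above the median of the other arrays. CLDN2, a claudin of leaky epithelia such as the choroid plexus, was well above background on only 2 arrays, so it was not tested. Its brighter probe read -2.38 on NK2 and -2.80 on NK3.

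The summed signal of the 5 tested genes of the list, in units of the 75th percentile of the array, ranged from 23.0 to 50.3 in NC, from 31.1 to 113 in NK, from 10.7 to 71.3 in HC and from 20.6 to 55.7 in HK. The highest sums were those of NK2 and HC5. The sum adds probes of very different brightness, and on HC5 it was mostly TF, at a level of 5.88, while IGF2 was near its median. None of the 5 genes passed the criterion in any comparison, and their median difference was 0.21 in NK-NC, against 0.00 over all probes, and -0.20 in HK-NK, against -0.01. With the mean of the 4 members, each standardized over the arrays, the list had a median correlation of 0.57, which was 0.14 without NK2. With TTR alone the 5 genes correlated at 0.36 to 0.62, highest for IGFBP2 and lowest for IGF2. Without NK2 these 2 gave 0.72 and 0.19.

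Stromal and tight junction genes were mixed. In the list of meninges and stroma, 6 of 22 genes were tested, and NK2 was highest for 3 of them, the shared IGF2 and IGFBP2 and the collagen gene COL3A1, which was 0.71 above the median of the others. The proteoglycan genes DCN and BGN and the prostaglandin synthase gene PTGDS were not highest there. OCLN, which encodes the tight junction protein occludin, was highest on NK2 at -2.03, 1.16 above the median of the other arrays. F11R, a junctional adhesion molecule, was second highest there. None of these passed the criterion in any comparison with all arrays in the fit, and without NK2, or without HC5, OCLN alone passed, in HK-HC. No gene of the ependyma list, 10 genes of the ciliated lining of the ventricles, was on the array.

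Neuron genes set HC5 apart, an array with high TTR. Of 26 hippocampal neuron genes 7 were tested, and HC5 was the lowest array for 6 of them. NEUROD1, a transcription factor of dentate granule neurons, read -5.91 on HC5 against a median of 1.33, and its second-lowest array was HK2, another array with high TTR, at -1.31. SST, the peptide somatostatin of interneurons, read 1.86 on HC5 and 4.20 to 5.22 elsewhere. The glutamate receptor subunit genes GRIN1, GRIA1 and GRIA2 were 1.93, 1.00 and 0.77 below the median of the other arrays there. The summed signal of the 7 genes was 9.90 on HC5, against 34.5 at the median of HC, 38.1 to 44.8 in NC, 36.4 to 49.8 in NK and 45.3 to 51.4 in HK. On the arrays other than HC5 this sum was mostly SST, so it largely follows that gene. NPY was only 0.66 below the median of the other arrays on HC5. HC5, labeled as hippocampus, thus held most of these markers at reduced levels. In HC-NC, GRIN1, GRIA1, GRIA2 and GRIA4 were lower, the last by -0.35 (SE 0.15), and without HC5 only GRIA4 passed the criterion. The differences without HC5 were -0.74 for GRIN1 (from -1.02), -0.46 for GRIA1 (from -0.65) and -0.29 for GRIA2 (from -0.42). GRIA4 was also higher in HK-HC, in the interaction and in HK-NK, the last only while both NK2 and HC5 were in the fit. Without HC5, SST was higher in HK-HC by 0.47 (SE 0.19), and NEUROD1 was lower in HK-HC by -1.04 (SE 0.44) and in HK-NK by -1.31 (SE 0.44).

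All 7 neuron genes correlated negatively with TTR, from -0.62 for NPY to -0.38 for GRIA4, with a median of -0.48. Over all probes tested, the correlation with TTR had a median of -0.03 and 90% of probes lay between -0.57 and 0.53. NPY, GRIN1 (-0.59) and GRIA2 (-0.59) lay below that range and the other 4 inside it. Without HC5 they ran from -0.55 to -0.25. The part of dissection, place on the slide or biology in these levels was not tested.

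**Figure D5:**
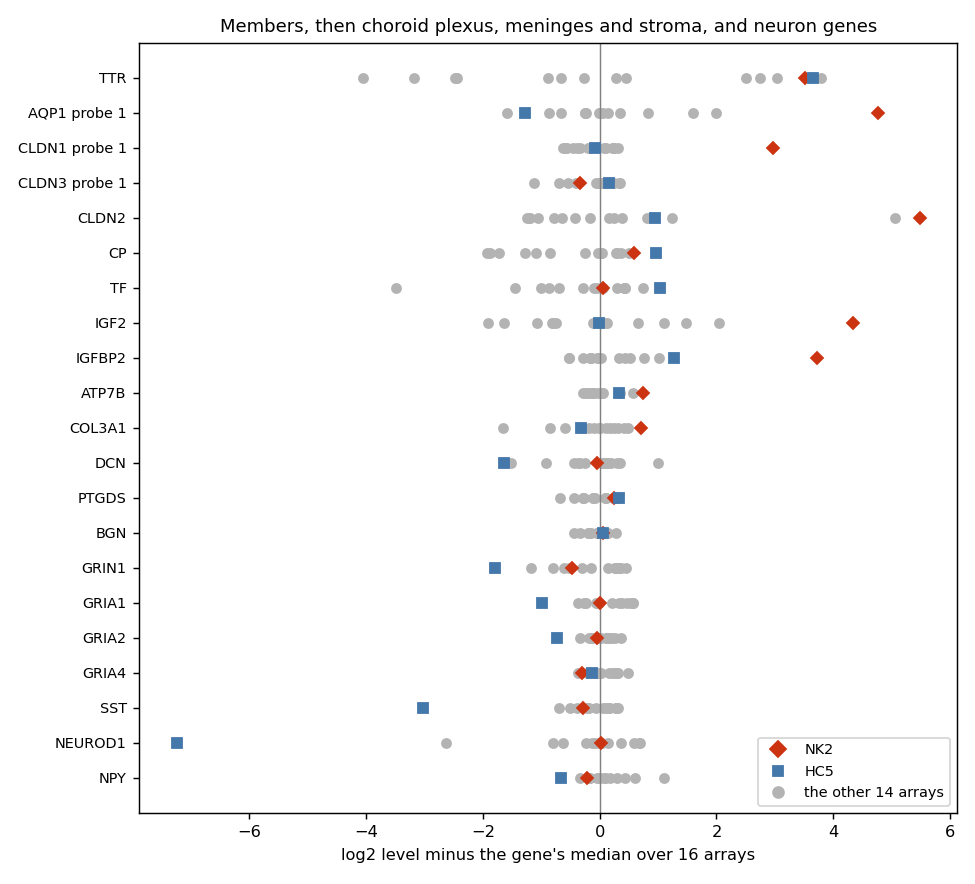
Level of the 4 members and of other choroid plexus, meninges and stroma, and hippocampal neuron genes on each array, as log2 difference from the median of the gene over 16 arrays, with NK2 as red diamonds and HC5 as blue squares. NK2 is the highest array for AQP1, CLDN1, CLDN2, IGF2 and IGFBP2, and HC5 is the lowest for NEUROD1, SST, GRIN1, GRIA1, GRIA2 and NPY.

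The comparison of hypoxia with normoxia (HC-NC) asks what remains of a short hypoxia a day later. TTR averaged 2.85 ± 3.21 (SD, n = 3) in NC and 2.97 ± 3.07 (SD, n = 5) in HC, a difference of 0.12 with an SE of 1.98 on the log2 scale. Without HC5 it was -0.71. With slide and array row in the fit it was -0.48 (SE 1.21), and with replicate number -0.88 (SE 1.06). AQP1 was not above background by probe 1 on any NC array and on only 1 of 5 HC arrays. CLDN1 probe 1 differed by -0.38 (SE 0.59) and CLDN3 probe 1 by 0.28 (SE 0.28). No member probe of 8 passed the criterion, an unadjusted p under 0.05 by limma, which 10.8% of all probes passed. None had groups that did not overlap, as 7.81% of all probes did. HC4 decided this for CLDN3. Without that array, HC-NC was 0.55 (SE 0.17) for CLDN3 probe 1 and 0.60 (SE 0.18) for probe 2, both past the criterion but not after adjustment over all probes. The 2 probes share 59 bases and are close to 1 reading. HC4 was singled out for its low CLDN3 level, so these calls are only a description. In that fit 547 probes were higher and 647 lower past the criterion, of 12543 tested.

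Ketamine in normoxia (NK-NC) changed none of the 8 probes past the criterion, against 1.78% of all probes, and none had groups without overlap, against 3.52%. The TTR difference was -0.83 (SE 2.07), and -2.20 without NK2. AQP1 probe 1 was above background on 2 of 4 NK arrays and on no NC array. Its difference was 1.28 (SE 1.08), short of the criterion. With dim NC arrays raised to the lowest signal well above background, the ratio of NK to NC was 2.11, and 0.96 without NK2. This is no lower bound, since NK1 and NK3 were not well above background either. AQP1 probe 2 differed by 1.71 (SE 0.93), or 0.64 without NK2. A replicate block takes up whatever arrays of one number shared, place on the slide included. With it AQP1 probe 2 differed by 1.81 (SE 0.80) and was past the criterion, the only member probe that was. CLDN1 probe 1 differed by 0.44 (SE 0.62) and turned to -0.37 without NK2.

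Ketamine before hypoxia (HK-HC) left all 8 probes short of the criterion, which 4.74% of all probes passed, and no member had groups apart, against 1.00% of all probes. TTR differed by 0.53 (SE 1.82), from 2.97 in HC to 3.50 ± 2.49 (SD, n = 4) in HK. The differences of the other probes lay between -0.11 for AQP1 probe 1 and 0.48 for CLDN1 probe 2, each smaller than its SE.

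Hypoxia under ketamine (HK-NK) gave the single probe past the criterion, where 5.26% of all probes passed. AQP1 probe 2 fell by 2.07 (SE 0.86), from a mean of -5.36 ± 2.16 (SD, n = 4) in NK to -7.43 ± 0.77 (SD, n = 4) in HK, with an adjusted p of 0.92 in limma over all probes. Only 2 of 4 NK arrays and 1 of 4 HK arrays had the probe well above background, and the HK mean lay below the lowest signal well above background on each HK array, so the size of this difference is not a measured fold. Without NK2 the difference was -0.996 and no longer past the criterion, in the deposited table it was -0.19, and AQP1 probe 1, with 59 of the same bases, gave -1.49 (SE 1.00) and -0.35 without NK2. HK and NK did not overlap for CLDN3 probe 1, with all 4 HK arrays at -1.26 to -1.03 above all 4 NK arrays at -1.97 to -1.30. This held for 3.32% of all probes. The difference of 0.35 (SE 0.27) was not past the criterion. HC4 is in neither group, so leaving it out only narrowed the spread pooled over groups (SE 0.16), and the probe then passed. In a fit of only the 2 groups compared, which also lacks HC4, no member probe passed. By CLDN3 probe 2 the groups overlapped, with HK at -1.39 to -1.10 and NK at -1.87 to -1.36. TTR differed by 1.48 (SE 1.92).

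The interaction, the effect of ketamine in hypoxia minus that in normoxia, was past the criterion for 3.44% of all probes and for no member. It was 1.36 (SE 2.76) for TTR, -1.39 (SE 1.44) for AQP1 probe 1, -0.07 (SE 0.82) for CLDN1 probe 1 and 0.07 (SE 0.39) for CLDN3 probe 1. Without NK2, that of CLDN1 probe 1 was 0.74 (SE 0.33) and past the criterion but not after adjustment. NK2 was singled out for its CLDN1 level among others, so this call is only a description. In that fit 267 probes were higher and 112 lower past the criterion, of 12543 tested. The comparisons share groups, HC-NC and HK-HC the HC arrays and HK-NK and NK-NC the NK arrays with NK2. No member probe passed an adjusted p of 0.05 in any comparison with all arrays in the fit.

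Among the named genes, those with a pattern most like TTR were FGF7, CHI3L1 and ART4. FGF7, a growth factor of mesenchymal cells, correlated with TTR at r = 0.82 and 0.74 by its 2 tested probes, and at 0.80 and 0.70 without NK2. CHI3L1, a secreted chitinase-like glycoprotein, gave 0.77. ART4, which carries the Dombrock blood group, gave 0.74 and 0.73, by probes well above background on 8 and 12 arrays. At the other end were CLC4 (-0.82), CDK5 (-0.79), the kinase of postmitotic neurons, SLC17A5 (-0.78), a lysosomal sialic acid transporter, TGFB2 (-0.77) and BAT3 (-0.73). Over all probes, named or not, 9 correlated with TTR above 0.8 and 17 below -0.8.

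The genes nearest to AQP1 and CLDN1 were those high on NK2. For AQP1 these included LEPR, the leptin receptor (r = 0.81), MMP2, a matrix metalloproteinase (0.74 and 0.68), and CLDN1 (0.70). For CLDN1 they included MMP2 (0.87 and 0.85), BCAT1, an aminotransferase of branched-chain amino acids (0.84), and IGFBP2 (0.84). Without NK2, LEPR kept a correlation of 0.51 with AQP1, and the others named here fell to between -0.12 and 0.26. Among the 5 lowest correlations with both genes were those of the lens crystallin gene CRYAA (-0.75 with AQP1 and -0.82 with CLDN1) and the ribosomal protein gene RPL10 (-0.62 and -0.77). Without NK2, CRYAA gave -0.13 and 0.08, and RPL10 gave 0.04 and -0.17. The other 3 on each side were PI3 by 2 probes and SRI for AQP1, and MUC2, DLL4 and YBX1 for CLDN1. Without NK2 the 2 PI3 probes gave -0.68 and -0.66 and SRI gave -0.13. MUC2, DLL4 and YBX1 then gave -0.46, -0.15 and -0.38.

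CLDN3 had different neighbors. Highest were PECAM1, an adhesion molecule of endothelium (r = 0.75), CAV1, the coat protein of caveolae (0.74), the anti-inflammatory cytokine IL10 (0.72 and 0.67) and SMO, a receptor of the hedgehog pathway (0.70). Without NK2 these correlations lay between 0.66 and 0.80, and Spearman's rho over all arrays lay between 0.58 and 0.80. HC4, the lowest array by CLDN3 probe 1, was also the lowest for PECAM1, and the correlations without HC4 were not computed. The lowest were the cytokine IL6 (-0.72), the adhesion molecule MADCAM1 (-0.68), MYOD1 (-0.59), TNFSF13B (-0.58) and the prostaglandin synthase PTGS2 (-0.56). By rho they ran from -0.75 for PTGS2 to -0.20 for TNFSF13B.

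The families of the members moved little between groups. Of 24 other genes of aquaporins and fluid transport, 10 were tested. In this list SLC4A4, a sodium bicarbonate cotransporter, was lower in HC-NC by -0.50 (SE 0.20) and higher in HK-HC by 0.54 (SE 0.18) and in HK-NK by 0.46 (SE 0.19), and passed in the interaction too. It was the only gene of the list that did, and without NK2 it did not pass in HK-NK. The list median in HC-NC was 0.03. Of 18 other tight junction genes 2 were tested and neither passed. Of 16 carriers and receptors of thyroid hormone and retinol, the ligands that TTR transports, 2 were tested, and THRB, a thyroid hormone receptor, was lower in HC-NC by -0.56 (SE 0.18) and higher in HK-HC by 0.57 (SE 0.17) and in the interaction. ALB, albumin, did not pass in any comparison.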

How the data were processed

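The authors hybridized Cy3-labeled cRNA to one-color arrays and deposited the scanner output, with spot intensity after background subtraction and spatial detrending in Feature Extraction 10.1.1.1, per the file headers, and no normalization between arrays. They also deposited a table of log2 values, made with limma in R 2.15.1 per the labels, whose values share their quantiles over arrays. Groups and replicate numbers came from the sample labels. Here log2 intensity minus the 75th percentile of each array was used, control and outlier spots were left out, and 12543 of 15008 probes well above background (13 SD) on at least 3 of 16 arrays were tested. Of the 15008 probes, 1432 had a gene name, 704 of them through a RefSeq accession. The 4 groups were fitted in limma 3.58.1 (R 4.3.3), and the criterion was an unadjusted p under 0.05, as in the study's methods, which name no adjustment. Benjamini-Hochberg adjusted p-values over all probes were computed too. The script was tested on simulated data. The number of arrays limits the precision.

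The members, the lists and the tests were chosen with earlier results of these data known. The named genes were the 4 members, the genes of the lists, and for each member (brightest probe) the 5 tested probes of other named genes with the highest and the 5 with the lowest correlation. A gene that this rule names is not reported here. The lists were choroid plexus, ependyma, meninges and stroma, endothelium, red blood cells, microglia and macrophages, astrocytes, hippocampal neurons, thyroid hormone and retinol carriers, aquaporins and fluid transport, and tight junctions. NC and NK arrays of one number deviated together from their group means (r = 0.37, 0.31 and 0.21 over probes). Arrays of one number also shared a slide and a row, in all 4 groups. The part of place, or of anything the fetuses shared, was not tested. The numbers are those of the labels. For HC and HK the correlations were 0.39, 0.31, 0.07 and 0.12. Between normoxia and hypoxia, arrays of one number gave 0.08, 0.13 and 0.04 for NC with HC. For NK with HK they gave 0.03, 0.16, 0.12 and 0.26. The alternatives tried were the deposited table, normexp background correction (offset 50), scaling by the median or by quantiles, other filters, slide, row or replicate block, array weights, only the 2 groups compared, the mean of the probes of a gene, and each array left out. The block by slide and row, the fit without both NK2 and HC5, and the counts of calls with an array left out were added after seeing the data. The hypothalamus was not analysed here.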

Additional observations from a re-analysis of the deposited data

Results flagged for a closer look

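Of 24 combinations of a member probe with a group of 4 or 5 arrays, 3 held an array whose gap to the nearest of its group was too large a share of the range by Dixon's test, which flags about 1 in 20 groups by chance. AQP1 probe 2 read -2.14 on NK2, with the next NK array at -6.15. CLDN3 probe 1 read -2.41 on HC4, with the next HC array at -1.25. CLDN3 probe 1 read -1.03 on HK2, above the other HK arrays at -1.26 to -1.23, in a group whose whole range was small.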

How the results depend on the processing

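Of 700 log2 differences of a member probe under an alternative, 693 moved by less than the residual SD. Of 168 correlations 160 stayed inside the 95% interval of the value reported. Both bands are wide. The residual SD of TTR was 2.94, and its HC-NC difference, 0.12, ran from -1.22 without NC1 to 1.90 without NC2. Some of the 700 could not move, such as a difference with an array of a group not compared left out. The 1 call among the member probes, AQP1 probe 2 in HK-NK, kept its direction. No other difference could count as reversed, and some changed sign, as TTR in HC-NC did, to -0.88 with the replicate block. With normexp the background fit stood apart on 6 arrays, where the 5th percentile of the log2 signal was 7.25 to 10.6 against 5.91 to 6.04 on the other 10, so dim probes were compressed there. Under it AQP1 probe 2 in HC-NC became 1.04 and in HK-NK -0.10, CLDN1 probe 1 in HC-NC became 0.86, and the correlations became 0.99 for AQP1 with CLDN1, 0.69 for AQP1 with CLDN3 and 0.69 for CLDN1 with CLDN3. In the deposited table, which also compresses low signals, AQP1 probe 2 gave 0.18 in NK-NC, -0.19 in HK-NK and -0.18 in the interaction, and AQP1 with CLDN1 gave 0.97. The interaction of AQP1 probe 2 was -0.26 without both NK2 and HC5. AQP1 with CLDN1 was 0.12 by Spearman's rho, -0.11 on slide 2 and -0.26 without the 2 arrays farthest from the median, and leaving out 1 array at a time gave -0.12 (without NK2) to 0.76.

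The number of member probes past the criterion in NK-NC was 0, and 1 with the replicate block, and the block changed no other count of member probes called. In HK-NK it was 1, and 0 with normexp, in the deposited table and with only the 2 groups compared. It was also 0 among probes well above background on all arrays, where 4 member probes were tested and AQP1 probe 2, the probe called, was not. Leaving out each array gave 0 to 2 in HC-NC (2 without HC4), 0 to 1 in NK-NC (1 without NK4), 0 to 2 in HK-NK (0 without NK2, HK1 or HK3 and 2 without HC4) and 0 to 1 in the interaction (1 without NK2). The 2 in HC-NC were the CLDN3 probes that share 59 bases. Of 12543 probes, 547 were higher and 647 lower past the criterion in HC-NC without HC4. In NK-NC without NK4 these counts were 70 and 106. They were 360 and 294 in HK-NK without HC4, and 267 and 112 in the interaction without NK2. Over all probes, the number past the criterion was 1356 in HC-NC (585 to 1853 over the alternatives), 223 in NK-NC (18 to 424), 594 in HK-HC (92 to 1071), 660 in HK-NK (73 to 1068) and 431 in the interaction (98 to 666), lowest with normexp throughout. With the replicate block it was 1055 in HK-HC, 1068 in HK-NK and 666 in the interaction. For HC and HK, 3 of the 4 same-number correlations were above 0.1. The labels do not say that the numbers pair fetuses in any group. AQP1 is limited by signal, being near background on most arrays, and TTR by saturation on 3 arrays.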

Other observations

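Endothelium, blood, microglia and astrocyte genes were looked at beside TTR, since these cells lie in or near the plexus. Of 5 endothelial genes, PECAM1, KDR, FLT1 and NOS3 passed in no comparison, and SELP, an adhesion molecule of activated endothelium, was higher in HC-NC by 4.15 (SE 0.98) and in HK-NK by 2.52 (SE 0.95). Their correlations with TTR ran from -0.32 to 0.13. For the red blood cell genes HBB and AHSP they were 0.13 and -0.15, AHSP being higher in HC-NC by 2.51 (SE 0.69) and lowest of all arrays on NK2. Of 5 microglia and macrophage genes, CD14, FCGR1A and FCER1G were higher in HC-NC by 1.97 (SE 0.45), 1.13 (SE 0.44) and 0.72 (SE 0.27). CD14 and FCGR1A were lower in HK-HC, and FCGR1A in the interaction, a call lost without NK2 and without HC5. ITGAM, an integrin of these cells, passed in no comparison and had the highest correlation with TTR of the list, 0.63, or 0.59 without HC5. Of 4 astrocyte genes, only GJA1 passed, in HC-NC at 0.46 (SE 0.21), and it did not without NK2 or without HC5. GFAP, AQP4, GJA1 and FGFR3 correlated with TTR at 0.36, 0.24, 0.34 and -0.21.

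HC5 was the lowest array by more than 2 log2 units for 15 probes, against 0 to 4 for each other array. Their gene names were KRT25, KRT27, NEUROD1, PTGS2 and SST. DCN was also lowest on HC5, whereas TF, CP, PTGDS and HBB were highest there.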
